A study of Mus musculus with 8 samples.

Results

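Solute carriers are membrane proteins that move amino acids, peptides, sugars, ions, metals, nucleosides and other small molecules across the plasma membrane and the membranes of lysosomes, the Golgi apparatus and mitochondria. The members described here were selected on their symbol and their FPKM (fragments per kilobase of transcript and mapped library size). Of 357 genes of the table whose symbol has the form of an SLC gene, 136 had a Cuffdiff status of OK and at least 5 FPKM in at least 1 of 4 groups, and 217 had less than 5 FPKM in every group. The other 4, *Slc2a1*, *Slc16a3*, *Slc7a11* and *Slc40a1*, also passed 5 FPKM and were left out by the rule. Just inside the threshold were *Slc16a13*, *Slc35d2* and *Slc35e3* with highest values of 5.04, 5.04 and 5.05 FPKM, and just outside it were *Slc2a8* at 4.99 and *Slc12a9* at 4.76. Because FPKM in the compared groups chose the members, passing through 1 group alone favoured a difference between groups, and the counts below are descriptions. Of the members, 117 had at least 5 FPKM in every group and 19 did not.

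RNA-seq had been performed on bone marrow-derived dendritic cells (BMDCs), cells grown from mouse marrow with GM-CSF and IL-4. The 4 groups were WT cells and cells of mice without GEF-H1, all on a C57BL/6N background, each left untreated or given ansamitocin-P3 at 100 nM for 5 h, with 2 libraries per group. Ansamitocin-P3 is a maytansinoid that binds tubulin and destabilizes microtubules, and GEF-H1, the product of *Arhgef2*, is an exchange factor for RhoA that is held on microtubules and released when they come apart. The series asks how BMDCs respond to this loss of microtubules and what part of the response needs GEF-H1. *Arhgef2* (chromosome 3, 88593105 to 88649532, RefSeq on GRCm38.p6) was at 42.3 FPKM in control and 45.9 in treated WT cells, and at 4.59 and 4.16 in control and treated GEF-H1-/- cells. Its 95% intervals did not overlap between genotypes.

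The deposited table holds 1 FPKM per gene and group, into which the 2 libraries were combined, with the bounds of a 95% confidence interval. No test against the spread between duplicates was therefore possible, and no value below has an SD or an n. The methods give a target depth per sample, and the depth reached behind each value is not known. The interval of a member in control WT cells was a median of 45.5% of its FPKM wide. Changes are log2 ratios of FPKM + 1, which understate the change of genes with low FPKM. A gene was called past 2-fold at a log2 ratio beyond 1 or -1, and a second call required that the 95% intervals of the groups did not overlap. Both calls were made over all 8894 genes of status OK that reached 5 FPKM in a group or more.

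Dendritic cells depend on these carriers in several ways. Peptide and histidine carriers of the SLC15 family in endolysosomes bring bacterial muramyl peptides to the sensors NOD1 and NOD2, and arginine carriers feed nitric oxide synthase and arginase. Amino acid carriers of the plasma membrane and lysosome also supply the sensing system that controls mTORC1, and metal carriers withhold manganese, iron and zinc from microbes. The members came from 40 families and were put into 12 classes by family number and known substrate. Mitochondrial carriers were the largest class with 28 members, followed by 20 amino acid carriers (creatine, taurine and betaine carriers of SLC6 among them) and 20 carriers of metals and heme. Carriers of nucleotide sugars and acetyl-CoA had 19 members, several of them SLC35 genes whose substrate is not known, inorganic ions 14, organic acids and bases 10, sugars and polyols 8, vitamins and choline 6, nucleosides 4, fatty acids 3 and peptides 2. Another 2 genes, *Slc45a4* and *Slc46a3*, were in no class of these.

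In control WT cells the members ranged from 2.95 to 637 FPKM, with a median of 13.5 against 17.7 for all genes tested. Mitochondrial carriers held 44.3% of the summed FPKM of the members, and 3 of them were highest. *Slc25a5*, an ADP/ATP exchanger of the inner mitochondrial membrane, was at 637 and 619.6 FPKM in control and treated WT cells and at 620.3 and 584 in control and treated GEF-H1-/- cells. *Slc25a3*, the mitochondrial phosphate carrier, was at 309, 364, 294 and 295 in the same order, and *Slc25a4*, the second ADP/ATP exchanger, at 195, 179, 169 and 159. The intervals of these genes overlapped in all groups.

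Among the 10 highest members were also *Slc3a2*, the CD98 heavy chain (92.4 FPKM in control WT cells), the zinc exporter *Slc30a4* (86.6), the mitochondrial carrier *Slc25a39* (80.6) and *Slc15a3* (79.1). The leucine carrier *Slc7a5* (76.0), the taurine carrier *Slc6a6* (68.7) and *Slc31a2*, a relative of the copper carrier CTR1 (67.3), completed them. In other classes the highest genes were *Slc35b1* at 50.2 FPKM, a carrier of the endoplasmic reticulum, and the lysosomal sugar carrier *Slc2a6* at 45.8. The riboflavin carrier *Slc52a3* was at 28.7, *Slc27a3*, an acyl-CoA synthetase of the fatty acid transport family, at 27.5, and the equilibrative nucleoside carrier *Slc29a1* at 24.7. The orphan *Slc10a3* was at 14.4 and *Slc46a3* at 9.29.

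After ansamitocin-P3, 4 of the 136 members were past 2-fold higher in WT cells, where 4.38% of all genes tested were, and 6 were past 2-fold lower, where 1.32% of all genes were. With a pseudocount of 5 FPKM these counts were 2 and 1, and with a filter of 10 FPKM they were 3 and 3. Of the 6 lower, *Slc46a3* passed the 5 FPKM filter in control WT cells alone and *Slc25a29* in control GEF-H1-/- cells alone. By intervals, 17 members were higher (10.2% of all genes) and 15 lower (6.71% of all genes). The shares among the members were 2.94% and 4.41% past 2-fold and 12.5% and 11.0% by intervals. The median log2 change was -0.04 for the members and 0.03 for all genes, and the median absolute change 0.28 and 0.27. The summed FPKM of the members went from 3763 in control to 4139 in treated WT cells, a difference of 376 FPKM, of which 178 came from *Slc15a3*, 72.0 from *Slc3a2* 55.5 from *Slc7a2* and 55.4 from *Slc25a3*.

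**Figure D1:**
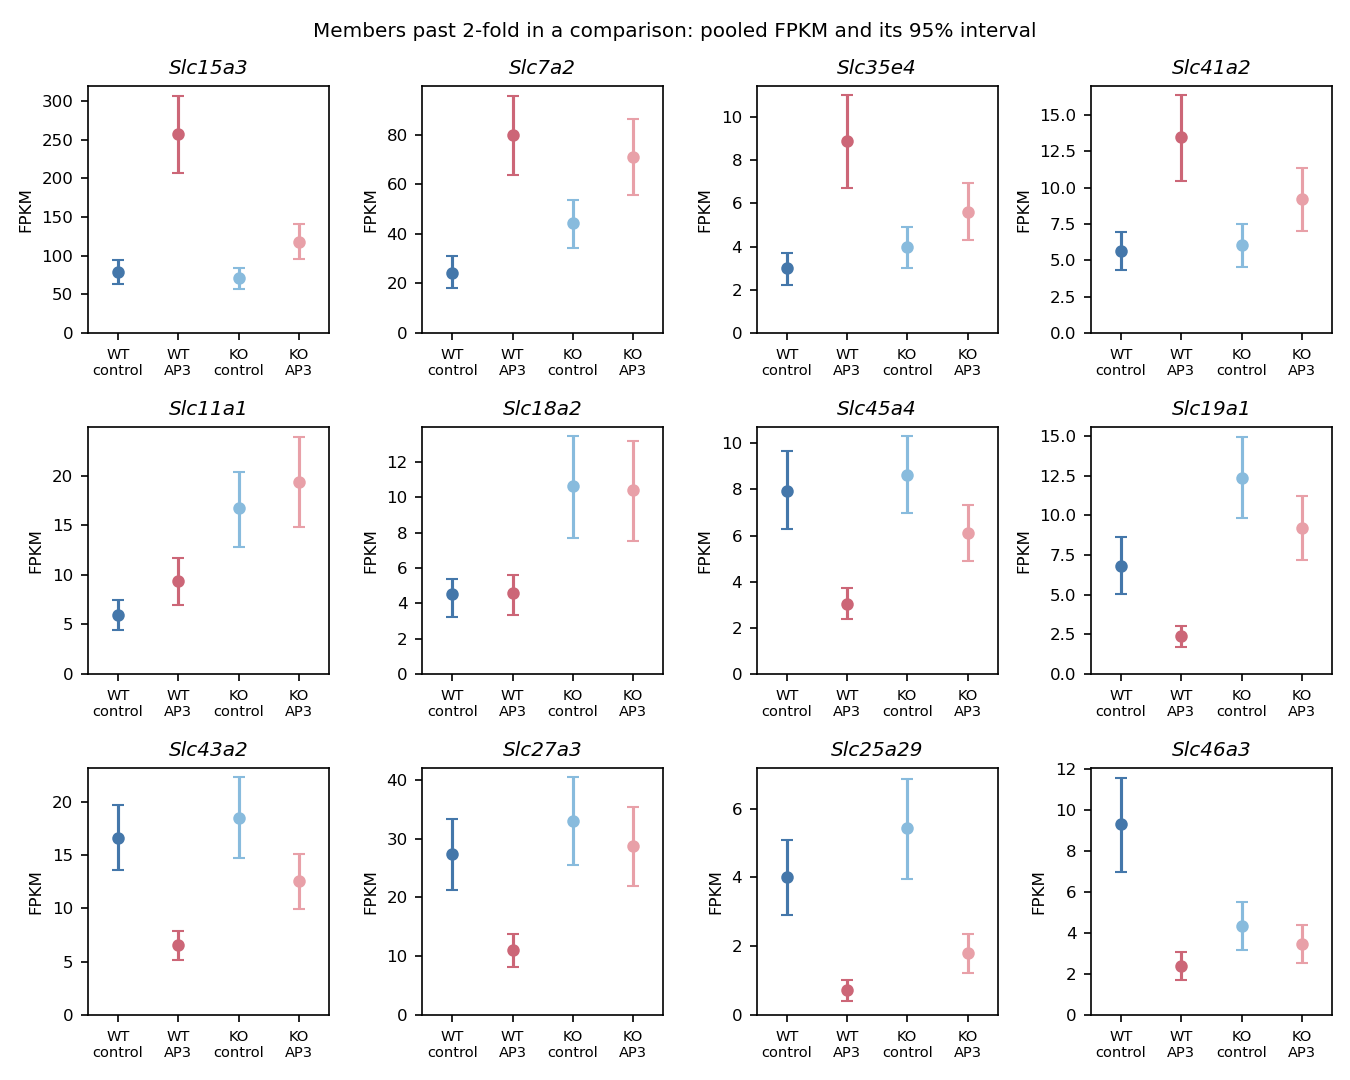
FPKM (vertical axis of each panel, from 0) of the 12 members past 2-fold in at least 1 comparison, with points for the pooled value of each group and bars for its 95% interval; AP3 is ansamitocin-P3 and KO is GEF-H1-/-. The top row holds the 4 genes past 2-fold higher in treated WT cells, *Slc15a3* reaching 257 FPKM, *Slc11a1* and *Slc18a2* separate the genotypes, and the other 6 genes are lowest in treated WT cells.

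Of the 2 peptide carriers, the gene that rose was *Slc15a3* (chromosome 19, 10842544 to 10857915), whose product PHT2 exports histidine and peptides from endolysosomes. Control WT cells had 79.1 FPKM of it (64.0 to 94.2) and treated WT cells 257 (207 to 307), while control GEF-H1-/- cells had 71.0 (57.5 to 84.5) and treated ones 118 (95.8 to 141). The 2 control values overlapped, both treated values lay above their controls, and treated WT cells lay above treated GEF-H1-/- cells. WT cells thus rose by 1.69 on the log2 scale (1.13 to 2.24 from the bounds of the intervals) and GEF-H1-/- cells by 0.73 (0.18 to 1.27). The end of *Slc15a3* shares 87 bases with the end of *Tmem132a* (10857829 to 10870205), which lies on the opposite strand. The deposited table, however, gives both genes 1 locus, which ends at 10869779 and covers nearly all of *Tmem132a*, so the ambiguity may reach past these bases. *Tmem132a* was at 7.30 and 26.4 FPKM in control and treated WT cells and at 5.68 and 8.50 in GEF-H1-/- cells, log2 changes of 1.72 and 0.51. Whether the counting kept the strands apart is not given in the sources used here, so the reads of the 2 genes cannot be assigned with certainty.

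*Slc15a4* (chromosome 5), the other endolysosomal histidine and peptide carrier, needed for signalling by TLR7 and TLR9, was at 15.4, 17.1, 14.2 and 14.9 FPKM in control and treated WT and control and treated GEF-H1-/- cells. All its intervals overlapped, and the WT change of 0.15 had bounds of -0.54 and 0.87, so a change of the size seen for *Slc15a3* lies outside them. Of 11 genes listed as endosomal TLRs, NOD sensors and their partners, 8 were tested. None was past 2-fold lower in WT cells (1.32% of all genes) and 1 was higher (4.38% of all genes). This was *Ripk2*, the kinase downstream of NOD1 and NOD2, at 28.7 and 79.7 FPKM in WT and 27.4 and 44.7 in GEF-H1-/- cells, log2 changes of 1.44 and 0.68. By intervals 1 tested gene, *Ripk2*, was higher in treated WT cells (10.2% of all genes). Another, *Tlr9*, was lower (6.71% of all genes), at 6.38 and 3.62 FPKM.

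Among 20 amino acid carriers, 4 were higher (10.2% of all genes) and 2 lower (6.71% of all genes) in treated WT cells by intervals, and the class median was -0.05. *Slc7a2* (chromosome 8, 40862341 to 40922070), the inducible arginine and lysine carrier CAT2, had 24.2 FPKM (18.1 to 31.0) in control WT cells and 79.7 (63.5 to 95.7) in treated WT cells. Without GEF-H1 the control value was 44.3 (34.5 to 53.7) and the treated value 71.1 (55.8 to 86.2), so that WT changed by 1.68 and GEF-H1-/- cells by 0.67 in log2. The groups stood apart before the drug, with GEF-H1-/- above WT, and the treated groups overlapped. *Slc7a1*, the constitutive carrier of the same amino acids, was at 15.8, 17.4, 12.7 and 16.7 FPKM, all with overlapping intervals.

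*Slc3a2*, the heavy chain that carries the SLC7 light chains to the membrane, was at 92.4 FPKM in control and 164 in treated WT cells with intervals apart, and at 101 and 116 in GEF-H1-/- cells with intervals that overlapped. Of its light chains, *Slc7a8*, a carrier of neutral amino acids, rose in WT cells from 9.55 to 15.2 FPKM and was at 15.0 and 18.1 in GEF-H1-/- cells. *Slc7a5* was at 76.0 and 68.0, *Slc7a6* at 13.8 and 11.7 and *Slc7a7* at 12.0 and 16.1 in control and treated WT cells, with intervals that overlapped. The creatine carrier *Slc6a8*, at 3.27 and 6.44 FPKM in WT and 4.96 and 8.82 in GEF-H1-/- cells, was higher after the drug by intervals in both genotypes, with log2 changes of 0.80 and 0.72.

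The amino acid carriers that fell in WT cells were *Slc43a2* and *Slc36a1*. *Slc43a2* (chromosome 11, 75529915 to 75577575), which carries branched-chain amino acids, methionine and phenylalanine, went from 16.6 to 6.55 FPKM, a log2 change of -1.22. It was at 18.5 and 12.5 in GEF-H1-/- cells, where the intervals overlapped, at -0.53. *Slc36a1*, the proton-coupled carrier of lysosomal amino acids, went from 12.1 to 6.45 FPKM in WT and was at 14.7 and 9.87 in GEF-H1-/- cells. None of the 18 tested of 20 genes of lysosomal amino acid sensing passed 2-fold in either genotype, and *Tfe3* and *Mitf* were higher in treated WT cells by intervals, at 0.65 and 0.55. Of 17 genes that respond to ATF4 and lack of amino acids, none passed 2-fold, *Atf4* (0.70) and *Trib3* (0.92) were higher by intervals in treated WT cells, and the list median was 0.15. Of all genes 4.38% were past 2-fold higher and 1.32% lower in WT, so that counts of 0 in lists of this size say little, and 10.2% were higher by intervals.

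For the 14 carriers of inorganic ions the class median was 0.27 in WT and 0.19 in GEF-H1-/- cells, with 5 higher (10.2% of all genes) and 1 lower (6.71% of all genes) by intervals in WT and 2 higher (3.0% of all genes) without GEF-H1. *Slc41a2* (chromosome 10, 83230848 to 83338037), a magnesium carrier, was at 5.67 and 13.4 FPKM in control and treated WT and at 6.03 and 9.21 in GEF-H1-/- cells, log2 changes of 1.11 and 0.54. *Slc41a1*, the magnesium exporter of the plasma membrane, was at 9.60, 15.8, 7.17 and 10.8 FPKM, with the drug's intervals apart in both genotypes. *Slc41a3*, the mitochondrial member of that family, was at 8.38, 5.54, 8.51 and 7.39 with overlapping intervals. In WT cells the values of *Slc41a1* and *Slc41a2* were thus higher after the drug and that of *Slc41a3* lower, but the fall was called by neither rule.

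*Slc20a1*, a sodium-phosphate carrier, was at 20.1, 38.1, 21.7 and 32.6 FPKM and higher after the drug by intervals in both genotypes, at 0.89 and 0.57. The anion exchanger *Slc4a2* was at 16.3 and 31.2 FPKM in WT and 15.5 and 20.2 in GEF-H1-/- cells, apart by intervals in WT, at 0.89. The sodium bicarbonate carrier *Slc4a7* had the reverse pattern in WT, 14.1 and 7.33 FPKM, against 12.3 and 10.8 in GEF-H1-/- cells. Of 16 listed ion pumps, 8 were tested, and none passed 2-fold after the drug (4.38% of all genes were higher and 1.32% lower in WT). *Atp1b3*, a beta subunit of the sodium pump, was higher by intervals in treated WT cells, at 0.66.

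*Slc46a3* (chromosome 5, 147875897 to 147894861) had the lowest log2 change of the members in WT cells at the pseudocount of 1 FPKM. *Slc25a29* was lower with 0.1 FPKM (-2.34 against -1.91) and *Slc27a3* with 5 FPKM (-1.01 against -0.95). *Slc46a3* encodes a lysosomal carrier that is known to take catabolites of maytansine-based antibody-drug conjugates out of lysosomes, and ansamitocin-P3 is of the maytansine type. Its FPKM was 9.29 (6.99 to 11.5) before and 2.40 (1.70 to 3.09) after the drug in WT, and 4.36 (3.18 to 5.53) before and 3.47 (2.53 to 4.37) after it in GEF-H1-/- cells. *Slc46a3* thus reached 5 FPKM in control WT cells alone. Its selection favoured a fall in WT cells and a lower control value in GEF-H1-/- cells. On the log2 scale WT cells were at -1.60 and GEF-H1-/- cells at -0.26, where the intervals overlapped. Control GEF-H1-/- cells already stood below control WT cells, at -0.94, and the treated groups overlapped.

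*Slc25a29* (chromosome 12, 108825878 to 108835876), the mitochondrial carrier of basic amino acids, was the member that passed 2-fold in both genotypes. It was at 4.01 and 0.713 FPKM in control and treated WT cells and at 5.43 and 1.80 in GEF-H1-/- cells, with log2 changes of -1.55 and -1.20. It reached 5 FPKM in control GEF-H1-/- cells alone, so its selection favoured a fall in that genotype. Its values were low, and the WT change ranged from -0.66 with a pseudocount of 5 FPKM to -2.34 with 0.1. None of the 27 other mitochondrial carriers passed 2-fold after the drug, where 4.38% of all genes were higher and 1.32% lower in WT and 0.956% and 0.315% in GEF-H1-/- cells, and a count of 0 in 27 says little. *Slc25a13*, *Slc25a25* and the pyrimidine nucleotide carrier *Slc25a33* were higher by intervals in treated WT cells, and *Slc25a10*, the dicarboxylate carrier, was lower. *Slc25a33* reached 5 FPKM in treated WT cells alone.

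The remaining falls past 2-fold in WT cells were *Slc27a3*, *Slc19a1* and *Slc45a4*. *Slc27a3* (chromosome 3) was at 27.5 and 11.1 FPKM in WT and 33.0 and 28.7 in GEF-H1-/- cells, log2 changes of -1.23 and -0.19. *Slc27a4*, a fatty acid transport protein of the same family, was at 27.0 and 42.2 in WT, a rise by intervals, and at 17.2 and 18.2 in GEF-H1-/- cells. *Slc27a1*, also of this family, was at 8.03 and 4.46 in WT, a fall by intervals, and at 7.91 and 5.65 in GEF-H1-/- cells. The folate carrier *Slc19a1* (chromosome 10) was at 6.83 and 2.38 FPKM in WT and at 12.4 and 9.18 in GEF-H1-/- cells, log2 changes of -1.21 and -0.39. *Slc45a4* (chromosome 15) was at 7.95 and 3.05 in WT and 8.65 and 6.11 in GEF-H1-/- cells, at -1.15 and -0.44. For *Slc27a3*, *Slc19a1* and *Slc45a4* treated WT cells were lowest and lay apart from each other group.

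*Slc35e4* (chromosome 11, 3907022 to 3914664), an SLC35 gene of unknown substrate, was the fourth rise past 2-fold in WT, from 2.99 to 8.87 FPKM, with 3.98 and 5.62 in GEF-H1-/- cells, at 1.31 and 0.41. The GDP-fucose carrier *Slc35c1* fell by intervals in both genotypes, from 31.1 to 15.8 and from 32.1 to 21.8 FPKM. The vitamin C carrier *Slc23a2* and *Slc2a6* rose by intervals in WT, at 0.80 and 0.70, and the lactate carrier *Slc16a1* fell, at -0.87. Of the class of *Slc2a6*, sugars and polyols, *Slc2a9* and *Slc37a4* fell by intervals in WT, at -0.74 and -0.71.

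No carrier of metals and heme and no nucleoside carrier was called after the drug in either genotype by either rule. Over all genes the interval rule called 10.2% higher and 6.71% lower in WT and 3.0% and 0.731% in GEF-H1-/- cells. With 4 genes a count of 0 says little, and whether 0 of 20 differs from these shares was not tested. The 20 metal and heme carriers had WT changes from -0.36 to 0.58 with a median of -0.01, and the 4 nucleoside carriers from -0.49 to 0.04 with a median of -0.04. *Slc29a1* was at 24.7 and 17.3 FPKM in WT and 27.4 and 21.7 in GEF-H1-/- cells. Its WT change of -0.49 had bounds of -1.20 and 0.22, so a 2-fold fall was not excluded by these data. Among 4 listed genes of zinc buffering, the metallothionein *Mt2* was at 85.8 and 197 FPKM in control and treated WT and at 109 and 82.2 in GEF-H1-/- cells, log2 changes of 1.19 and -0.40. *Mt1* was at 255, 431, 274 and 217 in the same order, with overlapping intervals within each genotype, and the difference of drug effects was 1.59 for *Mt2* and 1.09 for *Mt1*. The third metallothionein of the list, *Mt3*, was at 20.1 and 12.7 FPKM in WT and 12.0 and 7.28 in GEF-H1-/- cells, with overlapping intervals. For *Mt1* and *Mt2* the FPKM of each group lies above the interval that the table gives with it, so their calls are doubtful. Of 14 genes of nucleoside and purine metabolism, none was past 2-fold lower in WT cells (1.32% of all genes) and 1 was higher (4.38% of all genes). This was *Nt5e*, which makes adenosine outside the cell, at 11.3 and 35.1 FPKM in WT and 9.75 and 14.7 in GEF-H1-/- cells. By intervals 2 genes of this list were higher (10.2% of all genes) in treated WT cells, *Nt5e* and *Upp1* (39.3 and 63.3), and 2 lower (6.71% of all genes), the adenosine deaminase gene *Ada* (17.1 and 8.51) and *Pnp* (54.2 and 35.6).

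**Figure D2:**
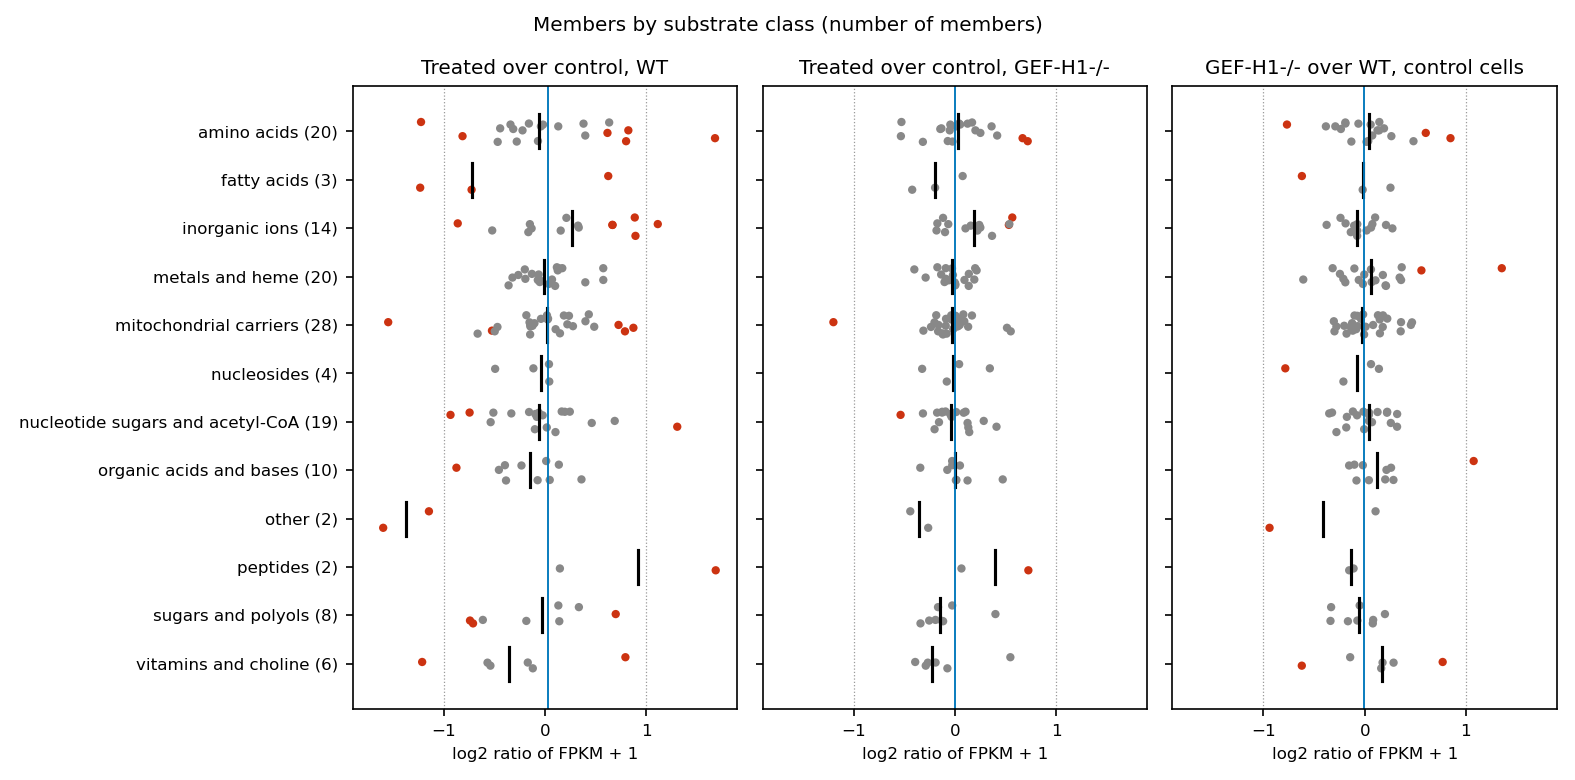
Log2 ratio of FPKM + 1 (horizontal axes) for each member by substrate class, with the number of members in brackets, for treated over control WT cells, treated over control GEF-H1-/- cells and GEF-H1-/- over WT control cells. Red points have intervals that do not overlap, black bars are class medians, the blue line is the median of all genes tested and dotted lines mark 2-fold; the 20 metal and heme carriers and the 4 nucleoside carriers have no red point in the drug panels.

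In GEF-H1-/- cells no member was past 2-fold higher after ansamitocin-P3 (0.956% of all genes tested were) and 1 was lower (0.315% of all genes). With a pseudocount of 5 FPKM none was lower. The 1 lower member, *Slc25a29*, had passed the filter in control GEF-H1-/- cells alone. By intervals, 5 members were higher (3.0% of all genes) and 2 lower (0.731% of all genes). The 5 were *Slc15a3*, *Slc6a8*, *Slc7a2*, *Slc20a1* and *Slc41a1*, the 2 were *Slc25a29* and *Slc35c1*, and all 7 were called the same way by intervals in WT cells. The median absolute log2 change was 0.13 for the members and 0.12 for all genes. The summed FPKM of the members went from 3743 to 3776.

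The WT and GEF-H1-/- changes come from different libraries. Across the 136 members they had a Pearson correlation of 0.84 and a Spearman correlation of 0.79, against a Spearman correlation of 0.73 over all genes tested; members within a comparison share their libraries and are not replicates. All 32 members called by intervals in WT cells had a change of the same sign and smaller size in GEF-H1-/- cells, a count that is favoured by choosing these genes on the WT change.

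**Figure D3:**
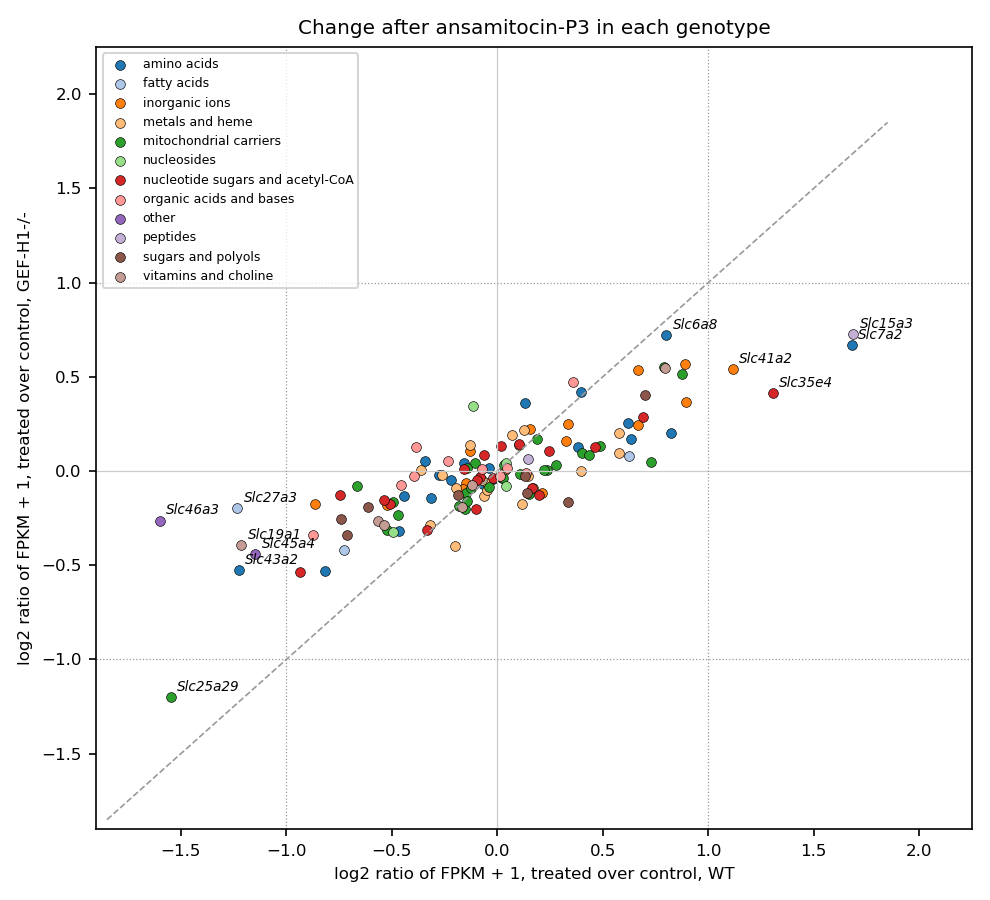
Log2 ratio of FPKM + 1, treated over control, of the 136 members in WT (horizontal axis) and GEF-H1-/- cells (vertical axis), coloured by substrate class, with dotted lines at 2-fold and a dashed line of equal change. The genes past 2-fold in WT lie nearer to 0 on the vertical axis, and *Slc25a29* is the gene past 2-fold on both.

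For the difference between the WT and GEF-H1-/- drug effects, 1 member was over 1 (1.57% of all genes tested) and 2 were under -1 (0.551% of all genes). The table gives no error for this difference, and with a pseudocount of 5 FPKM no member was beyond 1 or -1. The gene over 1 was *Slc7a2*, at 1.01, and with the groups rescaled to a common median ratio it was at 0.98. *Slc15a3* followed at 0.96, *Slc35e4* at 0.90, *Slc25a33* at 0.68, *Slc3a2* at 0.62 and *Slc41a2* at 0.58. Those under -1 were *Slc46a3*, at -1.34, and *Slc27a3*, at -1.04, followed by *Slc19a1* at -0.82, *Slc45a4* at -0.71, *Slc43a2* at -0.70 and *Slc4a7* at -0.69. *Slc7a2* and *Slc46a3* differed between genotypes before the drug, whereas *Slc15a3* and *Slc27a3* had overlapping control intervals and treated intervals that were apart. *Slc46a3* reached 5 FPKM in control WT cells alone and *Slc25a33* in treated WT cells alone, which favoured their differences.

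Between control cells, which also serve as controls of the drug comparisons, 2 members were past 2-fold higher in GEF-H1-/- (1.18% of all genes tested) and none lower (0.641% of all genes). With a pseudocount of 5 FPKM neither was past 2-fold (*Slc11a1* at 0.99, *Slc18a2* at 0.72), and with 0.1 FPKM 1 member was lower. By intervals, 6 were higher (2.24% of all genes) and 5 lower (1.69% of all genes). *Slc11a1* (chromosome 1, 74375014 to 74386057), the phagosomal manganese and iron carrier NRAMP1 of macrophages and neutrophils, was at 5.93 FPKM (4.44 to 7.42) in control WT and 16.7 (12.8 to 20.4) in control GEF-H1-/- cells, a log2 difference of 1.35. *Slc18a2* (chromosome 19, 59260878 to 59296012), the vesicular monoamine carrier VMAT2 that loads histamine into granules, was at 4.52 (3.20 to 5.40) and 10.7 (7.72 to 13.5), a difference of 1.08. After the drug they were at 9.34 and 4.57 FPKM in WT and 19.4 and 10.4 in GEF-H1-/- cells, so both kept to the genotype.

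The other members that were higher in control GEF-H1-/- cells by intervals were *Slc7a2* (0.85), *Slc19a1* (0.77), *Slc7a8* (0.60) and the zinc and iron carrier *Slc39a14* (0.56). Lower were *Slc46a3* (-0.94), the concentrative nucleoside carrier *Slc28a3* (-0.78), the betaine and GABA carrier *Slc6a12* (-0.77), *Slc52a3* (-0.62) and *Slc27a4* (-0.62). Of these, *Slc46a3* and *Slc6a12* reached 5 FPKM in control WT cells alone. *Slc28a3* was at 5.83 FPKM in control WT and 2.97 in control GEF-H1-/- cells. Of the ATF4 list, 5 of 17 genes were lower there by intervals (1.69% of all genes) and none was higher (2.24% of all genes).

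These are bulk samples, in which fewer cells of a type and less RNA per cell cannot be told apart. For all 6 listed markers of mast cells and basophils the control value was higher in GEF-H1-/- than in WT cells. Of these 5 were higher by intervals (2.24% of all genes) and 2 past 2-fold (1.18% of all genes). Their summed FPKM was 196 and 200.5 in control and treated WT and 380.5 and 364 in GEF-H1-/- cells, *Prss34* was the most abundant at 82.0, 83.8, 171 and 163, and none was at 0. *Fcer1a* was at 6.25 and 33.5 FPKM in the control groups. Of the 6 neutrophil markers in the table, 3 were lower by intervals in control GEF-H1-/- cells (1.69% of all genes), and *Mpo* was higher (2.24% of all genes). Past 2-fold, 2 were higher (1.18% of all genes) and 2 lower (0.641% of all genes). *Camp* was at 189 FPKM in control WT and 15.0 in control GEF-H1-/- cells. The 6 summed to 32023 and 37883 FPKM in WT and 21687 and 22111 in GEF-H1-/- cells, *S100a8* being the most abundant at 19401 and 10856 in the control groups, values above their own intervals. The part of these cell types in the genotype differences of *Slc18a2*, *Slc11a1* and the other members was not tested.

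The 8 dendritic cell markers summed to 4559, 5798, 3880 and 4172 FPKM in control and treated WT and control and treated GEF-H1-/- cells. *Cd74* was the most abundant, at 3676 in control WT cells, *Itgax* was at 102 and 132 and *Zbtb46* at 14.8 and 22.1 in control and treated WT cells with overlapping intervals, and *Flt3* and *Cd209a* were low at 2.10 and 1.81. The sum in treated WT cells follows *Cd74*, at 4935, with overlapping intervals. Of the 6 dendritic cell markers tested, 1 was lower by intervals after the drug in WT (6.71% of all genes), *Ciita* (23.4 and 11.3). None was higher (10.2% of all genes). *Flt3* (2.10 and 1.07) and *Cd209a* (1.81 and 0.808) were also lower by intervals, but stayed under 5 FPKM and were not among the genes tested. *Batf3* was at 106 and 72.5 in WT, with overlapping intervals. The 6 macrophage markers summed to 226, 173, 269.6 and 243 FPKM, led by *Cd68*, and 2 of them were lower by intervals in treated WT cells (6.71% of all genes). These were *Mertk*, at 5.46 and 0.778 FPKM in WT and 4.56 and 2.53 in GEF-H1-/- cells, and *Adgre1* (listed as *Emr1*), at 35.9 and 20.4 in WT. *Mertk* was lower by intervals in treated GEF-H1-/- cells too (0.731% of all genes). The part of these markers in the falls of the carriers in treated WT cells was not tested. The 5 B cell markers summed to 16.6, 10.2, 9.38 and 6.56 FPKM, the 4 T and NK cell markers to 7.81, 8.07, 5.67 and 5.50, and all 5 erythroid markers were under 1 FPKM in every group, with *Slc4a1* at 0 in both WT groups.

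**Figure D4:**
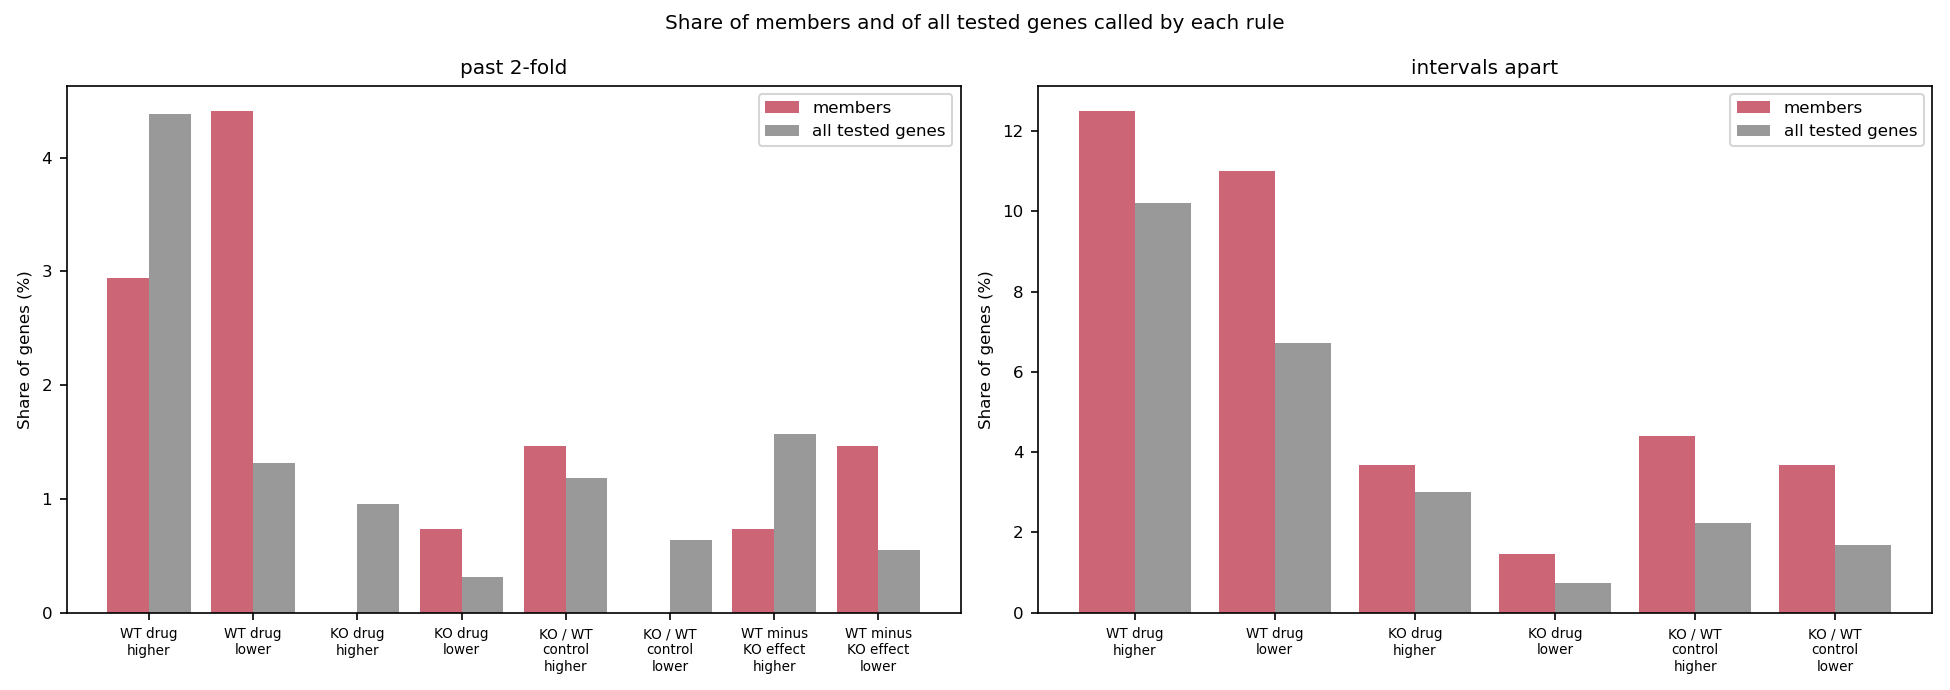
Share (vertical axes, %) of the 136 members and of the 8894 genes tested that were past 2-fold (left) or had intervals apart (right), for each comparison and direction; KO is GEF-H1-/-. In treated WT cells 4.41% of the members and 1.32% of all genes were past 2-fold lower, and 2.94% and 4.38% were past 2-fold higher. With a pseudocount of 5 FPKM, 1 of the 136 members was past 2-fold lower and 2 were higher.

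RefSeq promoters, from 250 bases before to 50 after a start, were held for 102 of the members with 143 starts. Their median content of G and C was 61.3%, against 52.7% for all 32851 promoters. The E-box letters CACGTG were in 20 of the 143 (14.0%, against 7.15% of all promoters), the AP-1 letters TGANTCA in 8 (5.59% against 7.81%), the letters TGATGNAA of a C/EBP-ATF element in 3 (2.10% against 3.97%) and the NF-kappaB consensus in 19 (13.3% against 8.46%). Both strands were read. Among 19 promoters of members that rose by intervals in WT cells 3 held CACGTG, 1 TGANTCA and none the NF-kappaB consensus. Among 21 promoters of members that fell these were 3, 1 and 5. A match describes letters and not a bound site.

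The promoters of the largest rise with an entry, *Slc35e4*, of *Slc20a1*, which rose in both genotypes, and of *Slc46a3* (*Slc15a3* and *Slc7a2* are not in the promoter table) are shown 5′ to 3′ with CACGTG in capitals. They lie at chr11:3914615-3914914 on the minus strand, chr2:129198523-129198822 on the plus strand (the first of 2 starts) and chr5:147894766-147895065 on the minus strand of GRCm38.p6.
Slc35e4: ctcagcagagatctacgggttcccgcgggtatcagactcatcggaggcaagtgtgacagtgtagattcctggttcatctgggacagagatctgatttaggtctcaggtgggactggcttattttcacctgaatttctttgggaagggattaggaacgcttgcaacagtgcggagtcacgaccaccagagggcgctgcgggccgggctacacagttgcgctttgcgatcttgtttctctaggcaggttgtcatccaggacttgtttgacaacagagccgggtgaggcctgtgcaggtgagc
Slc20a1: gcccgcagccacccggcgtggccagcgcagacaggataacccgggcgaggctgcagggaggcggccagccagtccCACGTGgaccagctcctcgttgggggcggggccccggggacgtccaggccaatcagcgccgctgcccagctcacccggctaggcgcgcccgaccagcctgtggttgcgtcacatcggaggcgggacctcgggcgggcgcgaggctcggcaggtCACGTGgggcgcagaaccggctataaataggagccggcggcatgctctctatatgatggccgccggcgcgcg
Slc46a3: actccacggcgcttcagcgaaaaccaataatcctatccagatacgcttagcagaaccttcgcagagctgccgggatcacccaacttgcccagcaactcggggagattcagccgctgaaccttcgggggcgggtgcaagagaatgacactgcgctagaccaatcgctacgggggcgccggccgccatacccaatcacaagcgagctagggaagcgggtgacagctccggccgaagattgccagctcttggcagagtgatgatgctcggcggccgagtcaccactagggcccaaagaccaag

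*Slc20a1* held 2 copies of CACGTG, 175 and 22 bases before its start, and the other 2 promoters held none.

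On the genome, 5 pairs of members lay less than 100000 bases apart. *Slc38a1* and *Slc38a2*, both carriers of glutamine and other neutral amino acids, lie 43954 bases apart on chromosome 15 and had WT changes of -0.28 and 0.63. *Slc38a2* was at 31.9 and 50.04 FPKM in control and treated WT cells and at 27.8 and 31.4 in GEF-H1-/- cells, with the treated intervals just apart between genotypes. *Slc6a13* and *Slc6a12*, 4853 bases apart on chromosome 6, had genotype differences of 0.02 and -0.77 in control cells. In the comparisons not used for these examples both pairs were closer, with control differences of -0.13 and -0.19 for the first pair and WT changes of -0.47 and -0.34 for the second. The other 3 pairs were *Slc31a2* and *Slc31a1*, *Slc35b2* and *Slc29a1*, and *Slc52a2* and *Slc39a4*, and no gene of them was called in any comparison.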

How the data were processed

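Per the labels and the study's methods, strand-specific libraries of polyadenylated RNA were made, and the authors computed FPKM with Cuffdiff (version 1.05, mm10, per the submitters' processing notes). The aligner and annotation behind this table are not given in the sources used here. The deposited FPKM are 1 pooled value per gene and group with interval bounds and a status. Columns were matched to groups by name, those of WT cells by elimination. No column of values was unused (0). Of 23356 genes, 107 without status OK were left out. The planned limma fit was for single libraries and was not run. Ratios used a pseudocount of 1 FPKM, with Python 3.11, pandas and numpy, and the computation was tested on simulated data. The depth reached is unknown. Positions and promoters are from RefSeq, GRCm38.p6.

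Members and lists were chosen with earlier results of these data known. Named were all SLC15 members, members past 2-fold, up to 6 each way with the largest changes among those with intervals apart (for the difference of drug effects, by size alone), the 10 highest in control WT cells, the highest of each class, *Arhgef2* and genes of related lists past 2-fold; others named were chosen after their values were seen. Some genes that this rule names are not reported here. Alternatives were pseudocounts of 0.1 and 5, filters of 1 and 10 FPKM and none, rescaling, a joint call and a 1.5-fold call.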

Additional observations from a re-analysis of the deposited data

How the results depend on the processing

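With a pseudocount of 5 FPKM, members past 2-fold in WT cells went from 4 to 2 higher and from 6 to 1 lower, those lower in GEF-H1-/- cells from 1 to 0, those higher in control GEF-H1-/- cells from 2 to 0, and those over 1 and under -1 in the difference of drug effects from 1 to 0 and from 2 to 0. With 0.1 FPKM, 1 member was lower in control GEF-H1-/- cells in place of 0, and 2 in place of 1 were over 1 in the difference. A filter of 10 FPKM left 98 members, with 3 lower in WT, 0 lower in GEF-H1-/- and 1 under -1 in the difference; fewer genes were tested. Rescaling left 0 over 1 in the difference. A 1.5-fold call gave 19 higher and 16 lower in WT, 3 higher in GEF-H1-/-, 5 higher and 6 lower in control GEF-H1-/-, and 5 over 1.5-fold and 7 under it in the difference. All other counts under the 8 alternatives were within 1.5 times the reported ones, and requiring intervals apart as well as 2-fold (for the difference, in the drug effect of either genotype) changed no count. Of 48 log2 values of members past 2-fold, recomputed with other pseudocounts or rescaling, 0 changed sign. This says little, because a pseudocount cannot turn the sign of a ratio of 2 groups. Of the 48 values, 44 moved by at most 0.5 times the range that their interval bounds span (at most 0.5 for the difference). The 4 others were *Slc25a29* in WT (-2.34 with 0.1 FPKM, -0.66 with 5) and *Slc46a3* in WT (-0.95) and in the difference (-0.80) with 5. The cause of these shifts was not tested.

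No paired analysis was possible because the table holds 1 pooled value per group and no single libraries. Leaving out a library in turn and a fit with a replicate block were for the same reason not run.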

Other observations

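Of 46 SLC genes between 1 and 5 FPKM, 1 was past 2-fold after the drug with intervals apart, *Slc29a2*, an equilibrative nucleoside carrier, at 2.51 and 0.754 FPKM in control and treated WT and 4.17 and 3.58 in GEF-H1-/- cells. Its log2 change in WT lay on the threshold itself, past it by less than the rounding, and no share of all genes was computed for this range of FPKM. Between control groups *Slc24a3*, a sodium/calcium and potassium exchanger, was at 0.847 FPKM in WT and 2.97 in GEF-H1-/- cells. At the other end, 171 of the 357 SLC genes were under 1 FPKM in every group, 40 of them at 0 in all 4.

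Of 50 ABC transporter genes, which move substrates with ATP, 17 were tested and none was past 2-fold after the drug (4.38% of all genes were higher and 1.32% lower in WT). *Abcg1*, a cholesterol exporter, was higher by intervals in treated WT cells, at 34.6 and 54.3 FPKM, and was at 25.3 and 25.8 in GEF-H1-/- cells. *Abca2* and *Abcc4* were lower by intervals in WT cells, at -0.87 and -0.71. Of 8 listed partner subunits of carriers, *Bsg*, the chaperone of the lactate carriers, was at 142 and 156 FPKM in control and treated WT cells with overlapping intervals, and none of the 7 tested passed 2-fold.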
